A study of Arabidopsis thaliana with 8 samples.

Results

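Transcripts of 3 Hsp70 chaperone genes were followed in Arabidopsis thaliana plants that overexpress the LAMMER protein kinase PK12 and in non-transformed plants. The genes were BIP1 (AT5G28540), Hsp70-2 (AT5G02490) and AT3G09440, and their members were all expressed sequence tags (ESTs, printed cDNA clones) that the array annotation assigned to one of these genes alone. That rule found 6 ESTs of 11965 on the array type used for plants of 10 days and 6 of 8829 on the type used for plants of 21 days. BIP1 was represented by EST T21370, Hsp70-2 by T22724 and AT3G09440 by AA042554, H76659, N96136 and T41829, and all 6 were present on both types. The 3 genes stood among 3519 genes that had a named EST.

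Each array compared total RNA of both kinds of plant, non-transformed plants in channel 1 and PK12 plants in channel 2, after growth under long days. Plants of 10 days were measured on 4 arrays, named 56, 57, 60 and 61, and plants of 21 days on 4 arrays of the other type, named b100, b90, t100 and t90. Per the labels, 2 independent experiments stand behind each set of 4. Which arrays belong to the same experiment is unknown, and part of the spread behind each p-value may be technical. The main fits treated the 4 arrays of an age as independent, so their p-values may be too small. Nothing was stated of the promoter that drives PK12, the number of transgenic lines or the plant part sampled.

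Hsp70 proteins are ATP-driven chaperones that bind exposed hydrophobic stretches of unfolded proteins and release them to fold. J proteins deliver clients to them and nucleotide exchange factors, among them Hsp110-type proteins, reset them. The cytosolic forms serve newly made and heat-damaged proteins, whereas BiP works in the lumen of the endoplasmic reticulum (ER), where its transcript is a classical target of the unfolded protein response. LAMMER kinases such as PK12, which comes from tobacco, phosphorylate splicing factors.

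All values are log2 ratios of the channels, with each array centred on its median, so 0 means equal channels for the typical EST and 1 means a 2-fold departure. The labels leave unsaid which channel was divided by which. A positive value would mean more transcript in PK12 plants if channel 1 was the denominator, and less if it was the numerator, so only the side of 0 is given. The files hold ratios without intensities, so levels of different genes cannot be compared, and fewer expressing cells cannot be told apart from less RNA per cell. With 4 arrays at each age, precision is limited by their number.

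The arrays differed in how far they resembled each other. Over all ESTs, pairs of 10-day arrays correlated at Pearson's r from 0.281 to 0.638, with ESTs sharing array and hybridisation. Pairs of 21-day arrays lay between -0.0667 and 0.385, and array b100 did not exceed 0.0823 with any other. Results at 21 days are therefore also given without b100. PK12 itself is not among the named ESTs. Its Arabidopsis relative AME3, another LAMMER kinase, had a mean of 0.25 ± 0.28 (SD, n = 4 arrays) at 10 days and -0.01 ± 0.20 at 21 days, and neither passed in limma.

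The first comparison asked which Hsp70 transcripts differed between the channels in plants of 10 days. BIP1 and Hsp70-2 lay on the positive side on all 4 arrays by more than the spread between arrays, with departures of 2.41-fold and 2.35-fold. AT3G09440 lay between them and 0, its 4 ESTs were scattered, and it did not pass. Of the 24 single values, 18 were above 0 and 12 were above 1, while 0 were below -1. Those above 0 were all 4 of BIP1, all 4 of Hsp70-2 and 10 of the 16 of AT3G09440. Values of 1 array or 1 gene are not independent. Since each array was centred on its median, about as many of all ESTs lie above 0 as below. The shares of all ESTs above 1 or below -1 were not counted at either age.

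BIP1, the ER luminal Hsp70, had log2 ratios of 1.53, 0.97, 1.37 and 1.20 on arrays 56, 57, 60 and 61. No array came near equal channels, and array 57 was the lowest. The mean was 1.27 ± 0.24 (SD, n = 4 arrays), with a 95% interval of 0.83 to 1.70 and an adjusted p of 0.00679 in limma. Only 3% of ESTs had a higher mean.

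Hsp70-2, a cytosolic Hsp70, read 1.40, 1.18, 1.21 and 1.15 on the same arrays. These values were closer together than those of BIP1, and only 2.48% of all ESTs had a smaller SD. The mean was 1.23 ± 0.11 (SD, n = 4 arrays), with a 95% interval of 0.83 to 1.64 and a limma adjusted p of 0.00609. The ranges of BIP1 and Hsp70-2 overlapped, so their order cannot be told.

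These calls have to be read against the array as a whole. In limma, 17% of the 11956 ESTs with a value on all 4 arrays passed at a Benjamini-Hochberg adjusted p under 0.05. Calls with a positive mean came to 8.58% of the ESTs tested and calls with a negative mean to 8.41%. With 56 blocked with 60, and 57 with 61, 1171 ESTs passed, BIP1 and Hsp70-2 among them. Among the 6 Hsp70 ESTs, 2 passed, both on the positive side. The same 2 ESTs were the ones above 0 on all 4 arrays, as were 21.1% of all ESTs. Each of these 2 genes rests on 1 EST.

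**Figure D1:**
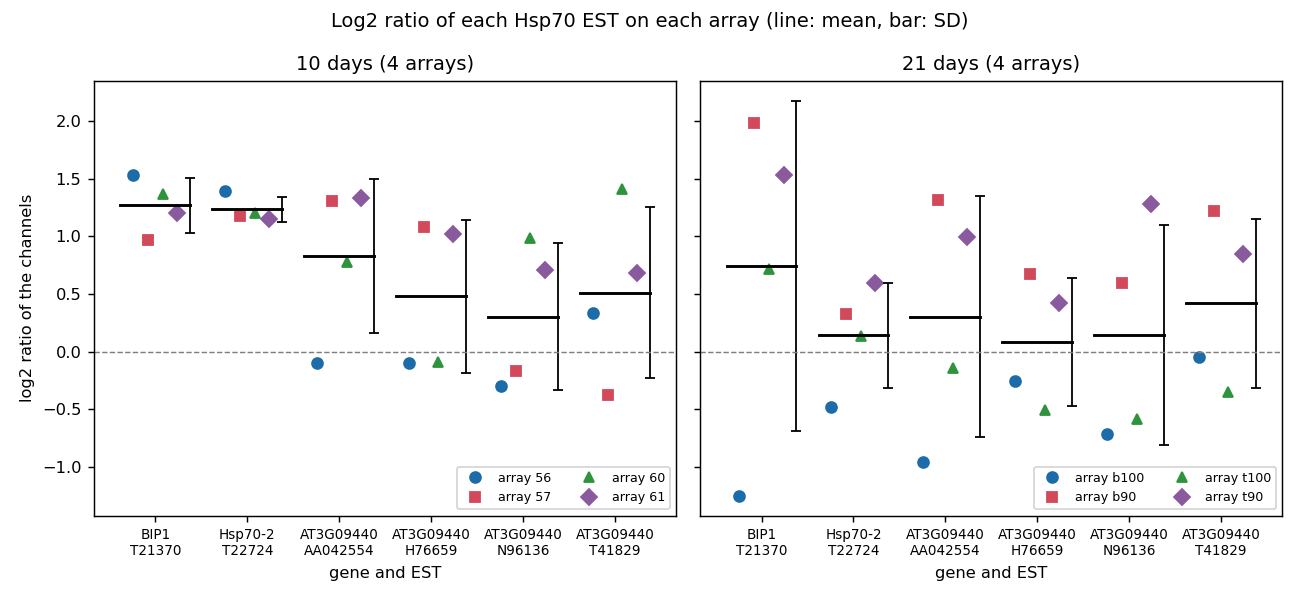
Log2 ratio of the channels (vertical axis) for each of the 6 Hsp70 ESTs (horizontal axis) at 10 days (left) and 21 days (right). Each symbol is 1 array, the line is the mean of 4 arrays and the bar is the SD. At 10 days BIP1 and Hsp70-2 sit between 0.97 and 1.53, while at 21 days BIP1 spreads from -1.25 to 1.98.

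AT3G09440, a second cytosolic Hsp70 also known as HSP70-3, gave a mean over its 4 ESTs of -0.04, 0.46, 0.77 and 0.94 on arrays 56, 57, 60 and 61. Array 56 stood at equal channels and the others were positive. The gene mean was 0.53 ± 0.43 (SD, n = 4 arrays), a 1.44-fold departure with a 95% interval of 0.05 to 1.02, which missed the threshold among 3517 genes (adjusted p of 0.128 in limma). At the level of genes 13.1% passed, 8.05% on the positive side, and BIP1 and Hsp70-2 were again among them (limma adjusted p = 0.00985 and 0.00966). The call of AT3G09440 depended on the treatment of the arrays. It passed with the local median over ESTs close in identifier order removed (limma adjusted p = 0.0497), where 777 of the 3517 genes passed. It also passed when 56 was blocked with 61, and 57 with 60 (limma adjusted p = 0.00173), as did 2021 of the genes. Residuals within that pairing correlated negatively.

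The ESTs of AT3G09440 did not follow each other at 10 days. EST AA042554 read -0.10, 1.30, 0.77 and 1.33 on arrays 56, 57, 60 and 61, and H76659 read -0.10, 1.08, -0.09 and 1.02. Both were high on arrays 57 and 61 and near 0 on array 56. N96136 read -0.30, -0.17, 0.98 and 0.70, and T41829 read 0.33, -0.38, 1.41 and 0.68. Both of these were below 0 on array 57 and highest on array 60.

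On array 57 the 4 ESTs thus spanned 1.68 log2 units within 1 gene, and on array 60 they spanned 1.5, against 0.63 on array 56 and 0.65 on array 61. All 4 were positive on array 61 alone. Over the 8 arrays of both ages, AA042554 and H76659 correlated at r = 0.841 and N96136 and T41829 at r = 0.834. The 4 other combinations of these ESTs ranged from 0.153 to 0.726 (n = 8 arrays, which the ESTs share, given as a description).

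Means of the 4 ESTs ran from 0.30 ± 0.63 for N96136 to 0.83 ± 0.67 for AA042554 (SD, n = 4 arrays). H76659 at 0.48 and T41829 at 0.51 lay between them, and all 4 ranges overlapped. None passed in limma, where adjusted p-values were 0.0756 for AA042554, 0.251 for H76659, 0.255 for T41829 and 0.451 for N96136. AA042554 passed when array 56 was left out, at 1.14 (limma adjusted p = 0.033). All 4 passed when 56 was blocked with 61, and 57 with 60, with limma adjusted p-values from 0.000593 for AA042554 to 0.034 for N96136. Under that block, where a negative correlation within pairs narrows the error of the mean, 7538 of the 11956 ESTs tested passed. Under the other pairings none of the 4 passed (limma adjusted p from 0.0636 for AA042554 to 0.568 for N96136).

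In order of their means, the ESTs stood as BIP1, Hsp70-2, AA042554, T41829, H76659 and N96136. Hsp70-2 did not overlap with H76659 or N96136, whose highest values of 1.08 and 0.98 lay below its lowest of 1.15. It did overlap with AA042554 and T41829. Cytosolic Hsp70 genes resemble each other in their coding sequence, as do BIP1 and BIP2, and whether a spot also bound transcripts of a related gene was not tested. BIP2, BIP3 and the other cytosolic Hsp70 genes had no EST of their own among the named ones.

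**Figure D2:**
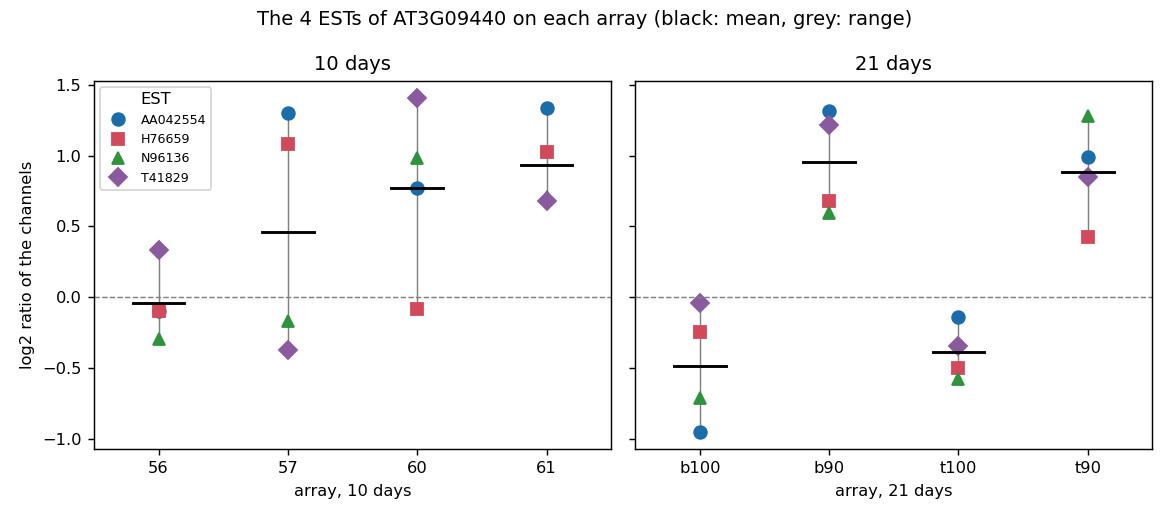
Log2 ratio of the channels (vertical axis) for the 4 ESTs of AT3G09440 on each array (horizontal axis), at 10 days (left) and 21 days (right). The grey line is the range over the 4 ESTs and the black bar their mean. At 10 days the ESTs spread by 1.68 on array 57, whereas at 21 days all 4 are positive on b90 and t90 and negative on b100 and t100.

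The same comparison in plants of 21 days gave no Hsp70 transcript that passed. All 3 genes had positive means, but the arrays contradicted each other. Of the 24 single values, 14 were above 0, of which 8 were among the 16 of AT3G09440. On array b100 none of the 6 ESTs was above 0, against all 6 on b90 and on t90. Of these 6 ESTs, 4 are of AT3G09440 and not independent. About as many of all ESTs lie above 0 as below on each array, by the centring. None of the 6 was above 0 on all 4 arrays, as 8.69% of all ESTs were. In limma 0% of the 8812 ESTs passed, with 890 at an unadjusted p under 0.05, so a missing call is shared with every gene on these arrays.

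BIP1 read -1.25, 1.98, 0.72 and 1.53 on arrays b100, b90, t100 and t90. Array b100 pointed to the other side, with a departure about as large as those of the positive arrays. The mean was 0.75 ± 1.43 (SD, n = 4 arrays), and 99.3% of all ESTs had a smaller SD. The 95% interval ran from -0.13 to 1.63 (limma adjusted p = 0.567), which includes the mean of 10 days. Without b100 the mean rose to 1.41 and still did not pass (limma adjusted p = 0.112).

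Hsp70-2 read -0.48, 0.33, 0.14 and 0.59 on the same arrays. None of these values reached the lowest one of 10 days, 1.15. The mean was 0.14 ± 0.45 (SD, n = 4 arrays), a 1.11-fold departure with a 95% interval of -0.38 to 0.67 (limma adjusted p = 0.883). Without b100 it was 0.35 (limma adjusted p = 0.583).

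AT3G09440 gave a mean over its ESTs of -0.49, 0.95, -0.39 and 0.88 on arrays b100, b90, t100 and t90. Arrays b90 and t90 were positive and the other 2 negative. EST AA042554 read -0.95, 1.32, -0.14 and 0.99, H76659 read -0.25, 0.68, -0.50 and 0.42, N96136 read -0.71, 0.59, -0.58 and 1.28, and T41829 read -0.04, 1.22, -0.35 and 0.85. The 4 ESTs, which had disagreed at 10 days, shared the sign on every array here.

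The gene mean was 0.24 ± 0.79 (SD, n = 4 arrays), with a 95% interval of -0.40 to 0.87 (limma adjusted p = 0.839), and 0.48 without b100 (limma adjusted p = 0.564). The sign pattern of the 4 ESTs, above 0 on b90 and t90 and below 0 on b100 and t100, was found in 7.75% of all ESTs. All 6 Hsp70 ESTs had both b90 and t90 above both b100 and t100, as did 20.6% of all ESTs. Arrays b90 and t90 were also the most alike of the 21-day pairs over all ESTs (r = 0.385). The labels do not say what the numbers in the array names stand for. This pattern was noticed in the values and is given as a description.

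A further comparison asked whether the ratios of the 3 genes differed between the ages. Hsp70-2 was the one gene whose arrays did not overlap between the ages, with every 10-day array above every 21-day array. BIP1 and AT3G09440 also had lower means at 21 days, by amounts that lay within the spread of the 21-day arrays. Age and array type cannot be told apart. The tables of both types were normalized separately by the authors, although each array is a ratio within itself and all 8 were centred by the same rule.

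For Hsp70-2 the difference, 21 days minus 10 days, was -1.09 with a limma SE of 0.28 and a 95% interval of -1.69 to -0.48. It stood at the threshold without passing it (limma adjusted p = 0.0524 over 2913 genes, and 0.0576 over 3951 ESTs shared by both types). The two-sided exact permutation test gave p = 0.0286, unadjusted, which is the smallest value that 4 arrays against 4 allow. It treated every array as an independent unit, although 2 independent experiments stand behind each set of 4, so this p-value may be too small. Of the shared ESTs, 7.62% likewise had every 10-day array above every 21-day array. In limma 3.47% of genes passed in either direction, 1.3% with higher and 2.16% with lower ratios at 21 days. Of shared ESTs 4.96% passed, 2.15% with higher and 2.81% with lower ratios. The Hsp70-2 difference did pass with quantile normalization (limma adjusted p = 0.0442) and with scaling between arrays (0.0467), and it did not when any single array was left out (0.0654 to 0.122).

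For BIP1 the difference was -0.52 with a 95% interval of -1.72 to 0.68 (limma adjusted p = 0.624). It turned to 0.14 when b100 was left out (limma adjusted p = 0.845), so its direction rests on that array. For AT3G09440 it was -0.29 with an interval of -1.13 to 0.54 (limma adjusted p = 0.696). Its 4 ESTs had differences from -0.52 for AA042554 to -0.09 for T41829, none of which passed. Those intervals leave room for a fall of more than 1 log2 unit as well as for a rise.

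**Figure D3:**
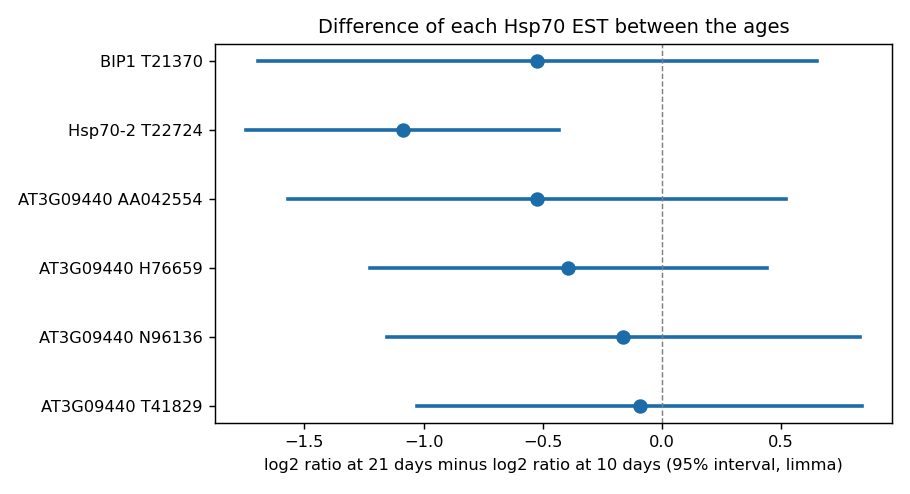
Difference of the log2 ratio between the ages (horizontal axis, 21 days minus 10 days) for each of the 6 Hsp70 ESTs (vertical axis). Points are means of 4 arrays minus means of 4 arrays and lines are 95% intervals from limma, without adjustment. The interval of Hsp70-2 runs from -1.75 to -0.43 and the other 5 include 0.

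To place the 3 genes among other folding factors, 84 chaperone genes in 7 lists were looked up, of which the list of organelle Hsp70s had no measured gene. Apart from the 3 Hsp70 genes, 13 were measured at 10 days, of which 4 passed on the positive side and 0 on the negative side, where 8.05% and 5% of all genes did. Their median log2 ratio was 0.58, that of the 3 Hsp70 genes 1.23 and that of all 3517 genes 0.04. The 4 genes that passed are known for roles in the ER, where BIP1 acts, or in its stress response. The lists were chosen with earlier results of these data known.

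Of the 24 genes in the list for ER folding, 4 were measured at 10 days and 3 passed, all on the positive side, as 8.05% of all genes did. ATERDJ3B, an ER J protein that delivers clients to BiP, read 0.93, 2.87, 1.21 and 1.92 on arrays 56, 57, 60 and 61. It was highest on array 57, where BIP1 was lowest, and its mean was 1.73 ± 0.86 (SD, n = 4 arrays; limma adjusted p = 0.0199). BZIP60, a transcription factor of the unfolded protein response, read 0.73, 0.88, 0.96 and 0.83, a narrow range around 0.85 ± 0.09 (limma adjusted p = 0.018). That range is an average of 2 ESTs that went opposite ways on arrays 56, 57 and 60, N97053 with 0.20, 1.47, 0.45 and 0.77 and T88194 with 1.26, 0.29, 1.46 and 0.89, of which T88194 passed alone (limma adjusted p = 0.0321) and N97053 did not (0.081). The calnexin gene AT5G07340, whose product holds glycoproteins during folding, was at 0.95 ± 0.53 (limma adjusted p = 0.0406). It fell short of the threshold with the local median removed, at 0.59 (limma adjusted p = 0.0636), and with 56 blocked with 60, and 57 with 61 (0.0642).

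The calreticulin CRT1b, which binds the same kind of client, was at 0.76 ± 0.58 and did not pass (limma adjusted p = 0.08). AT4G16660, an ER protein of the Hsp110 type, was the one measured gene of its list of 4 and lay at 1.25 ± 0.67 (SD, n = 4 arrays; limma adjusted p = 0.0289). By gene mean AT4G16660, BZIP60, AT5G07340 and CRT1b were lower on array 57 than on array 60, with the array 57 value of AT4G16660 at 0.36. ATERDJ3B went the other way, with 2.87 on array 57 and 1.21 on array 60. So did EST N97053 of BZIP60, with 1.47 and 0.45. The calls of ATERDJ3B, BZIP60, AT5G07340 and AT4G16660 were less steady than those of BIP1 and Hsp70-2. Of these 4 genes that passed, 1 passed without array 56, 2 without array 57, 1 without array 60 and 0 without array 61.

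No gene of the heat shock list, which holds cytosolic Hsp90s, cochaperones, heat shock factors and small heat shock proteins, passed at 10 days. Of its 28 genes 3 were measured, from Hop2, which links Hsp70 to Hsp90, at 0.13 ± 0.10 to the small heat shock protein AT2G29500 at 0.91 ± 0.93 (limma adjusted p = 0.613 and 0.119). AT2G29500 passed without array 60, where it read -0.35, at 1.34 (limma adjusted p = 0.0376), and with the local median removed (0.0106). Of the 14 chaperonin genes 5 were measured and none passed, with means from -0.21 for AT1G24510 to 0.58 for AT5G26360, both subunits of the cytosolic chaperonin that folds actin and tubulin. AT5G26360 passed with the local median removed (limma adjusted p = 0.0105).

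At 21 days 12 of these other chaperone genes were measured, 0 passed, and their median was -0.00, against 0.02 for all 2913 genes. BZIP60 was at 0.79 ± 0.91, AT4G16660 at 0.43 ± 0.70, CRT1b at 0.42 ± 0.38 and AT5G07340 at 0.06 ± 0.57 (SD, n = 4 arrays). Without b100 these means were 1.19, 0.56, 0.23 and 0.11 in the same order, and none passed in limma (adjusted p from 0.211 to 0.911). BZIP60 read -0.39, 1.51, 1.52 and 0.54 on arrays b100, b90, t100 and t90, and b100 was its lowest array. By gene mean the same held for BIP1, Hsp70-2, AT3G09440, Hop1, Hop2 and the chaperonin gene AT3G11830, with Hop2 at -0.34 on both b100 and t90. Single ESTs differed, with H76659 and T41829 of AT3G09440 lowest on t100, and T20868 of Hop1 and T46453 of Hop2 lowest on t90. CRT1b instead was highest on b100, at 0.99, and so were AT2G29500 and the means of the chaperonin genes AT5G26360 and AT3G03960. For AT5G26360 that came from EST W43418 at 4.29, while N37479 read -0.42 there. EST R64864 of AT3G03960 was highest on b90. The shares of all genes lowest or highest on b100 were not counted.

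**Figure D4:**
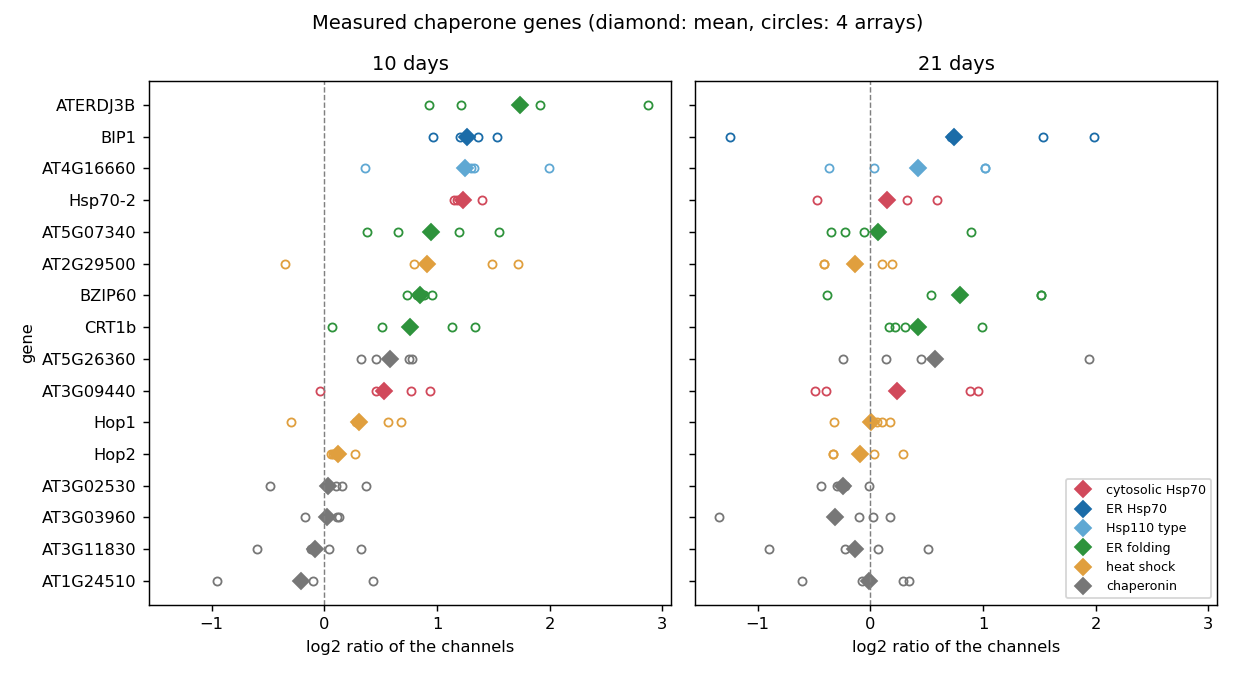
Log2 ratio of the channels (horizontal axis) for the measured chaperone genes (vertical axis, in order of the 10-day mean), at 10 days (left) and 21 days (right). Diamonds are gene means, circles are the 4 arrays, and colours give the list. At 10 days the ER genes and Hsp70-2 have means from 0.76 to 1.73, a range that also holds the small heat shock gene AT2G29500 at 0.91. Of the 5 chaperonin genes 4 lie between -0.21 and 0.04. The other, AT5G26360 at 0.58, lies in between, as do AT3G09440 at 0.53, Hop1 at 0.31 and Hop2 at 0.13.

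Over the 8 arrays BIP1 correlated with AT3G09440 at r = 0.723 and with Hsp70-2 at 0.663, and Hsp70-2 with AT3G09440 at 0.496. Among 2912 other genes measured on all 8 arrays, those most like BIP1 were AT1G72910 (r = 0.971), AT1G65180 (0.966) and AT5G24000 (0.95). AT1G72910 matched BIP1 in size too, with means of 1.39 at 10 days and 0.71 at 21 days. Those most like Hsp70-2 were AT5G27700 (r = 0.993), NET1C (0.973) and AT5G07080 (0.973), and those most like AT3G09440 were AT1G70770 (0.962), AT4G08850 (0.933) and AT1G13640 (0.922). No other Hsp70 gene was among these 9. Little can be read from that, since BIP1, Hsp70-2, AT3G09440 and the Hsp110-type AT4G16660 were the only ones measured. All correlations share the same 8 arrays, pool both ages and array types, and are given as a description. A shift between the ages thus enters r. In the order given, the genes most like Hsp70-2 had means of 0.75, 0.90 and 0.48 at 10 days. At 21 days theirs were -0.17, -0.22 and -0.32.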

How the data were processed

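The authors deposited 1 log10 ratio per EST and array. The base was read off the numbers: 10 to the power of the value had 3 decimals for 90.6% to 93.7% of ratios under 3 on 7 arrays, against at most 0.691% for base 2. Array 56, mostly rounded to 2 decimals, had a like spread (SD 0.277 against 0.222 to 0.252 on the other 10-day arrays). Medians at or near 0 show that the arrays had been centred. For scanner, dyes, background correction and spot filters, nothing is given in the sources used here.

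The log10 values were turned into log2 and centred again per array. ESTs complete at an age were tested with limma 3.58.1 (R 4.3.3, data.table package 1.17.8, statmod 1.5.0) against equal channels, with eBayes and Benjamini-Hochberg adjustment over all ESTs or genes at 0.05. ESTs of a gene were averaged. The platform annotation was brought to current genes through the TAIR10.1 gene table, which matched 5209 of 5216 single-gene ESTs at 10 days and 3905 of 3910 at 21 days. The fits were tested on simulated data, whose outcome is not given here and is not used as support for any result.

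The 3 genes, the chaperone lists and the tests were chosen with earlier results of these data known. Every Hsp70 EST is named, with the highest and lowest gene of each other list at 10 days and the 3 genes most correlated with each Hsp70 gene. BZIP60, AT5G07340 and the 21-day values of list genes were added after their values were seen. Alternatives were no centring, quantile normalization, scaling between arrays, removal of the local median over 36 neighbouring ESTs on either side in identifier order, robust eBayes, ESTs with 3 or more values, pairs of arrays as a random block and leaving out each array. No sequences or coordinates were used.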

Additional observations from a re-analysis of the deposited data

How the results depend on the processing

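BIP1 and Hsp70-2 kept their side and their call at 10 days under all 13 alternatives run, on their ESTs with means from 1.18 to 1.69 and from 1.10 to 1.26 and limma adjusted p-values up to 0.0262 and 0.0248. At 21 days no Hsp70 EST or gene passed under any of 13. AT3G09440 passed at 10 days with the local median removed (0.59) and with array pairs 56+61 and 57+60 as a random block (0.53). The age difference of Hsp70-2 passed with quantile normalization (-1.11), with scaling (-1.10) and under 5 of 9 combinations of array pairs as blocks (-1.09 each). Those combinations had negative correlations within pairs, from -0.505 to -0.089 over genes. The others, at 0.021 to 0.207, did not pass (limma adjusted p from 0.0584 to 0.124). The exact permutation p of 0.0286 is unadjusted and the smallest possible, so it is not counted as a pass. The cause of the difference was not tested. Averaging only ESTs shared by both array types changes nothing, since all 6 are shared.

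Counts over the whole array moved more. With 10-day pairs 56+60 and 57+61 as a block, 1171 ESTs, 263 genes and 2 of the other chaperone genes passed. With 56+61 and 57+60 these were 7538, 2021 and 8, at a correlation within pairs of -0.806 over ESTs, which narrows the error of the mean. With the local median removed, 3084 ESTs and 777 genes passed at 10 days and 169 genes differed between the ages. Pairs b100+b90 and t100+t90 gave 71 ESTs at 21 days. For the age difference the blocks gave 165, 67, 168, 29, 812, 455 and 791 genes and 103, 52, 117, 1149, 709 and 1119 shared ESTs where these counts moved by over 1.5 times.

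Leaving out 1 array gave 1042 to 1210 ESTs, 99 to 195 genes and 0 to 2 of the other chaperone genes at 10 days, 0 to 3 ESTs at 21 days, and 40 to 92 genes and 68 to 134 shared ESTs for the age difference, with fewer arrays in each fit. Means near 0 turned sign. At 21 days Hsp70-2 ran from -0.0046 (without t90) to 0.35, AA042554 from -0.034 (without b90) to 0.72, H76659 from -0.11 to 0.28, N96136 from -0.23 to 0.43 and AT5G07340 from -0.21 to 0.20, with -0.031 for AT5G07340 when the local median was removed. At 10 days AT1G24510 ran from -0.42 to 0.040 (without 57). Age differences ran from -0.93 to 0.14 for BIP1, from -0.54 to 0.12 for N96136 and from -0.39 to 0.21 for T41829. H76659 and N96136 turned at 21 days without b90 or t90, the age difference of BIP1 turned without b100, and those of N96136 and T41829 turned without 60, b100 or t100.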

Other observations

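ESTs of 1 gene also disagreed among the other chaperone genes. For the cytosolic chaperonin subunit AT5G26360, EST W43418 was at 1.22 at 10 days (limma adjusted p = 0.0134) and N37479 at -0.06 (0.82). At 21 days W43418 read 4.29 on array b100 and -0.33, 1.6 and -0.06 on b90, t100 and t90, while N37479 read -0.42 on b100. For Hop2 at 10 days, AA040981 was at -0.58 and T20791 at 0.60, and neither passed in limma. For CRT1b, AA042519 passed at 10 days at 0.80 (limma adjusted p = 0.0435) although the mean of the gene did not. These ESTs were picked out after their values were seen.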
